A study of Homo sapiens with 10 samples.

Results

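The 37 genes described here cover the making of cholesterol and fatty acids and the control and handling of sterols: 7 of the mevalonate pathway, 11 of the squalene and sterol steps, 5 that control SREBP, 7 of fatty acid synthesis and 7 of sterol transport and efflux. They were picked by gene name from the 58735 genes of the expression table, with no threshold on values, by a choice made when earlier results of these data were known. FPKM, fragments scaled to exon length and library depth, reached 1 in at least 2 libraries for 35 of them, which were tested together with all other genes that passed, 13927 in all. CYP51A1, the lanosterol demethylase, and ABCG1, a cholesterol exporter, did not pass.

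All 10 libraries came from TPC-1, a human papillary thyroid carcinoma line whose growth is driven by a CCDC6-RET fusion, which the drug-treated and control cells share. Parental cells were exposed to the solvent DMSO for 24 h or to 5 µM BLU667 (pralsetinib, a RET kinase inhibitor) for 24 h. The other 3 groups were colonies, named BR8, BR10 and BR16, derived from parental cells and kept in 5 µM BLU667. Their exposure is given as more than 50 days in the sample labels and as more than 5 months in the series design. Each group had 2 libraries, called biological replicates in the design with no word on how the cultures were separated, and each colony is 1 derived line. In such bulk RNA, fewer cells of a type and less RNA per cell cannot be told apart.

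Cells make cholesterol from acetyl-CoA through mevalonate, farnesyl diphosphate, squalene and lanosterol, and fatty acids through malonyl-CoA. Both branches are switched on by the SREBP transcription factors, which SCAP carries from the endoplasmic reticulum to the Golgi for cleavage when membrane sterol is low, while INSIG proteins hold SCAP back when sterol is plentiful. SREBP-2, the product of SREBF2, mainly drives sterol genes, SREBP-1c from SREBF1 mainly drives fatty acid genes, and oxysterols act through the liver X receptors (LXR) to raise exporters such as ABCA1.

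Depth ran from 15243703 to 21904245 reads in genes per library. PAX8, a thyroid lineage factor, had group means of 37.9 to 94.1 FPKM, and only 3 of 8 thyroid follicular cell markers passed the filter, with the differentiation genes TG, TSHR and SLC5A5 not among them. Keratins KRT8 and KRT18 were present, while the epithelial adhesion genes EPCAM and CDH1 had group means of 0.151 FPKM or less. None of the leukocyte, endothelial, adipocyte or hepatocyte markers passed, and their summed levels were at most 0.377 FPKM per list in any library. Expression differences across genes followed GC content in some contrasts, with a Spearman correlation over 13923 genes of 0.62 between the DMSO replicates, -0.61 for BR8 against BR16 and -0.53 for BR10 against BR16, so colony results that a GC correction removed are named as such.

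After 24 h of BLU667, 10 of the 35 genes rose and 12 fell (28.6% and 34.3%), close to the 29.0% and 31.2% of all tested genes that rose and fell (60.2% either way), so the count alone does not set them apart. The median log2 change was -0.19, against -0.01 for all tested genes. By role, squalene and sterol steps had 5 higher and 2 lower of 10 tested, fatty acid synthesis 0 higher and 5 lower of 7, the mevalonate pathway 2 higher and 1 lower of 7, SREBP control 1 and 1 of 5, and transport and efflux 2 and 3 of 6. The difference between roles was not tested. Both 24 h libraries lay above both DMSO libraries for 10 genes (28.6%, against 37.7% of all tested) and below for 16 (45.7%, against 39.0%). SREBF2 and SREBF1 themselves went opposite ways. Calls here and below are adjusted p-values under 0.05 from limma over all 13927 genes, and log2 changes are of FPKM + 1, ± SE.

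**Figure D1:**
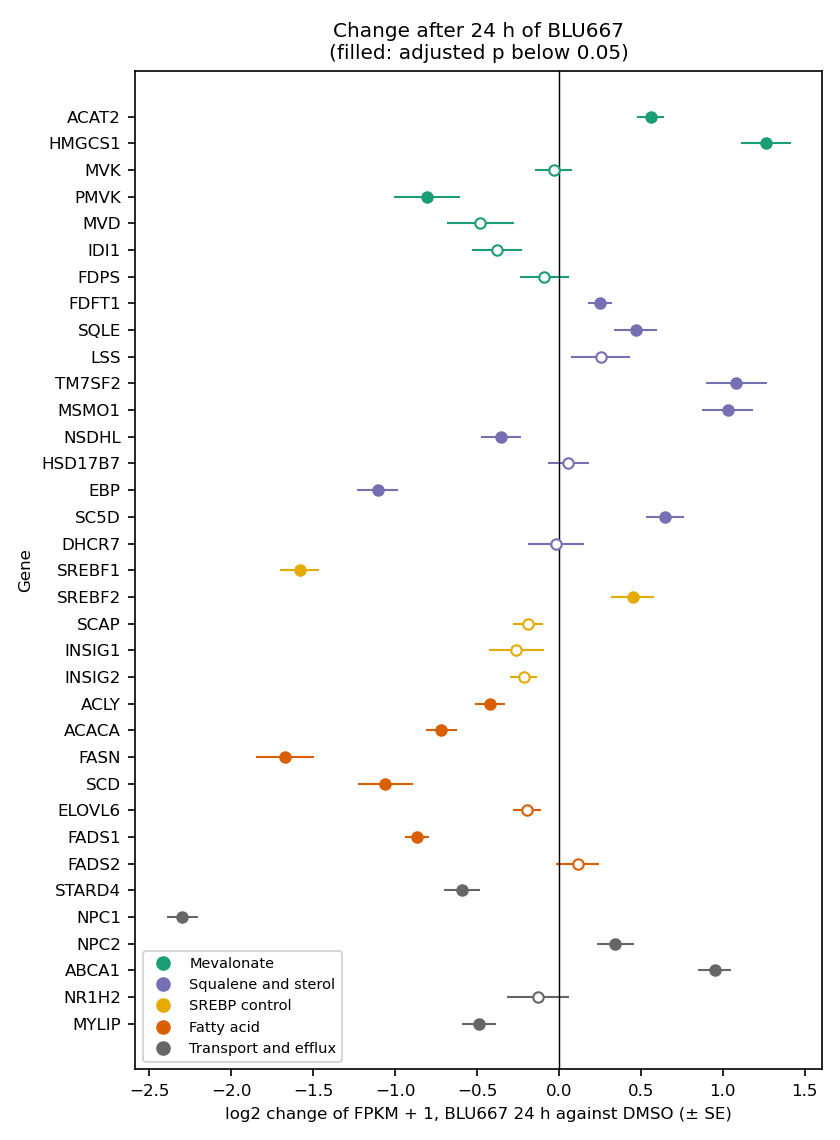
Log2 change of FPKM + 1 (horizontal axis) after 24 h of BLU667 against DMSO for the 35 tested genes, coloured by role. Points are limma estimates, bars are ± 1 SE, and filled points passed an adjusted p of 0.05; the fatty acid genes lie left of 0 apart from FADS2, and HMGCS1, TM7SF2 and MSMO1 lie at 1.03 or more to the right.

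Dividing-cell genes moved with the same contrast. Summed FPKM of 6 proliferation markers was 451 and 546 in the DMSO libraries, 14.2 and 20.3 with BLU667 and from 168 to 266 in the colonies, and all 6 markers fell at 24 h. Of 6 fibroblast markers 3 passed the filter. The sum of all 6 was 3.34 and 3.09 FPKM in DMSO, 13.3 and 17.6 with BLU667, and lowest in BR10 (0.763 and 0.879). The 3 epithelial markers that passed all differed among colonies by F test, as did 58.1% of all tested genes. Values with the GC trend removed are not given for these markers. The sum of all 6 listed was highest in BR16 (111 and 98.4 FPKM, against 46.2 to 53.0 in BR8 and BR10). The part of these lists in the lipid gene changes was not tested.

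Among the regulators, SREBF1 (ENSG00000072310, GRCh38 chr17:17810399-17837002, minus strand), the gene of SREBP-1, stood at 32.7 and 26.1 FPKM in DMSO and 9.14 and 9.05 after 24 h of BLU667. It stood at 9.30 and 8.63 in BR8, 10.1 and 12.0 in BR10, and 16.4 and 17.7 in BR16. All 8 drug-exposed libraries were thus below both DMSO libraries. The acute log2 change was -1.58 ± 0.12 (adjusted p = 1.2e-05), and the mean of the 3 colonies was -1.23 ± 0.10 from DMSO (adjusted p = 2.62e-05).

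SREBF2 (ENSG00000198911, chr22:41833079-41907308, plus strand) went the other way at 24 h, from 32.4 and 25.9 FPKM in DMSO to 42.9 and 37.1. Its colonies had 18.5 and 15.7 (BR8), 30.9 and 34.7 (BR10) and 25.3 and 26.6 (BR16). The acute rise was 0.45 ± 0.13 on the log2 scale (adjusted p = 0.018), and this call was lost without DMSO replicate 2 (adjusted p = 0.094) or without BLU667 replicate 1 (adjusted p = 0.11). Both acute libraries were above both DMSO libraries, and BR8 was below them. The colony mean lay 0.69 below the 24 h level (log2 -0.69, adjusted p = 0.000733). This last call ended with the colony means as replicates (limma, adjusted p = 0.103).

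SCAP, the escort of SREBP, had 12.9 and 12.0 FPKM in DMSO, 10.6 and 11.0 at 24 h, 9.44 and 8.09 in BR8, 8.68 and 9.76 in BR10, and 14.0 in each BR16 library. The acute difference of -0.19 did not pass (adjusted p = 0.11), and the colony mean of -0.23 (adjusted p = 0.0326) turned to 0.01 with the GC trend removed (adjusted p = 0.870). INSIG1, a sterol-sensing anchor that is itself an SREBP target, had 17.0 and 19.4 FPKM in DMSO, 18.5 and 12.1 at 24 h, 10.9 and 12.2 in BR8, 27.9 and 26.4 in BR10, and 11.0 and 11.1 in BR16. Its 24 h libraries overlapped DMSO (log2 -0.26 ± 0.17, adjusted p = 0.213), BR10 was above DMSO and the other colonies were below. INSIG2, its close relative, had 6.62 and 6.10 FPKM in DMSO, 5.16 and 5.52 at 24 h, 9.03 and 8.02 in BR8, 7.44 and 7.31 in BR10, and 7.82 and 8.13 in BR16. INSIG2 was higher in every colony library than in either DMSO library (log2 0.28, adjusted p = 0.00912, for the colony mean). That call ended with the colony means as replicates (limma, adjusted p = 0.221).

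**Figure D2:**
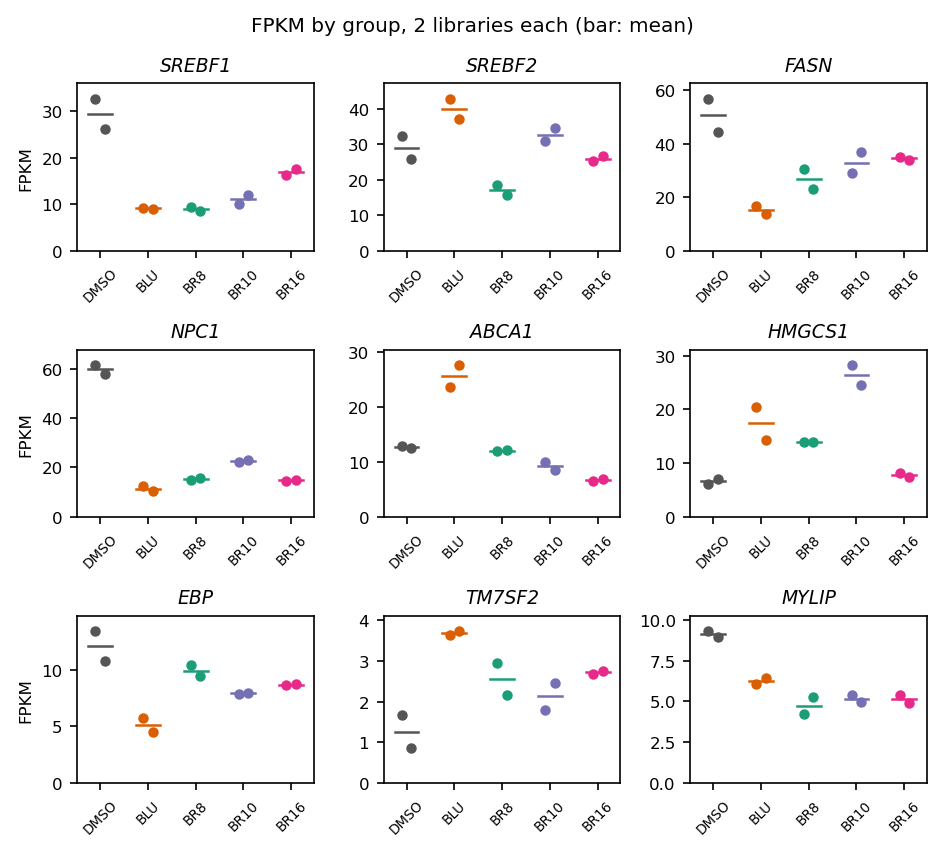
FPKM (vertical axis, from 0) of 9 genes in the 10 libraries, with BLU standing for BLU667 for 24 h. Each point is 1 library and each line the mean of a group; SREBF1, FASN, NPC1 and EBP are lower at 24 h than in DMSO, and SREBF2, ABCA1, HMGCS1 and TM7SF2 are higher.

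Of the sequences in front of these genes, those of HMGCS1, MSMO1, SCD and SREBF2 are shown because HMGCS1 and MSMO1 are 2 of the 3 genes that rose by 1 or more on the log2 scale, SCD the widest spread among colonies, and SREBF2 is the sterol regulator. RefSeq promoters (GRCh38.p14, the 250 bases before a gene's start) were matched for 32 of the 37 genes. Capitals mark CCAAT, the NF-Y box, on either strand (ATTGG on the other), and TCACNCCAC, a sterol regulatory element in which N is any base. The intervals are chr5:43313413-43313662 (minus strand), chr4:165327419-165327668, chr10:100346983-100347232 and chr22:41832855-41833104 (plus strand).
HMGCS1: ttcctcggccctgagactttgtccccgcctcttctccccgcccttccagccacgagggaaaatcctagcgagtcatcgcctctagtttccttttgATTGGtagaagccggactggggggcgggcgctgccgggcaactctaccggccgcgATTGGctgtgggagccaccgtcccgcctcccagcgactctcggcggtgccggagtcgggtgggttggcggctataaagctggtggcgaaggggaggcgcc
MSMO1: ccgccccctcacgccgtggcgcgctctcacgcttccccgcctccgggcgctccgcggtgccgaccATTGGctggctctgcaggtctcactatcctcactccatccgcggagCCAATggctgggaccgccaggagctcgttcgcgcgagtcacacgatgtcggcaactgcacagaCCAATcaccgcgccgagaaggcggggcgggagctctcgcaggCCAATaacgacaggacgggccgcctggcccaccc
SCD: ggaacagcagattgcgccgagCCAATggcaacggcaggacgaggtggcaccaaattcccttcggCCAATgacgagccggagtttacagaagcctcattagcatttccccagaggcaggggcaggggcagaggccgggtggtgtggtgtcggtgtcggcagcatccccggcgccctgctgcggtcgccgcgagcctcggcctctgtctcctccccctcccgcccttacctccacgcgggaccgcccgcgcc
SREBF2: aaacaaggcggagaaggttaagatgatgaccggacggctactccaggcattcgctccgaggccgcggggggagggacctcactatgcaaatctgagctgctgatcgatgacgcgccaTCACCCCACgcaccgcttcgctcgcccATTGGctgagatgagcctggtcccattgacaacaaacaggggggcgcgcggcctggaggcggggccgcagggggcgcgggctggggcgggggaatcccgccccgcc
CCAAT stood 4 times in the MSMO1 window, with its first base 185, 139, 76 and 34 bases before the start. It stood 2 times in the HMGCS1 window shown (155 and 100) and 2 times in that of SCD (229 and 186). Another RefSeq start of HMGCS1 (window chr5:43313182-43313431) held neither CCAAT nor TCACNCCAC, and only windows with a CCAAT are shown. SREBF2 held 1 sterol regulatory element 133 bases before its start and a CCAAT at 106. CCAAT occurred in 21 of the 32 genes (65.6%), against 41.7% of the 9246 tested genes with a promoter and 37.0% of all 27305. GGGCGG, the core of the Sp1 box, occurred in 31 (96.9%, against 75.6% and 46.2%), and TCACNCCAC in 1 (3.13%, against 1.17% and 1.09%). Both strands were searched, a gene counted when any of its starts had the letters and none of the 3 motifs contains another. These are matches of letters and no measure of binding.

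HMGCS1 (ENSG00000112972, chr5:43289395-43313512, minus strand) makes HMG-CoA from acetoacetyl-CoA. It had 6.18 and 6.99 FPKM in DMSO, 20.5 and 14.4 at 24 h, 13.9 in each BR8 library, 28.4 and 24.5 in BR10, and 8.18 and 7.39 in BR16. Every exposed library was above both controls, with BR16 closest. The acute log2 change was 1.26 ± 0.15 (adjusted p = 0.000168), and the colony mean was 1.01 ± 0.12 above DMSO (adjusted p = 0.000296). The second call ended with the colony means as replicates (limma, adjusted p = 0.179). As 15.0% of its exonic bases lie in another gene's exons, without strand some reads are uncertain.

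ACAT2 (ENSG00000120437, chr6:159760328-159779055), the thiolase that supplies acetoacetyl-CoA, had 11.3 and 11.8 FPKM in DMSO, 18.0 and 17.0 at 24 h, 14.7 and 16.4 in BR8, 25.6 and 24.2 in BR10, and 7.82 and 7.71 in BR16. It rose by 0.56 ± 0.08 on the log2 scale at 24 h (adjusted p = 0.00045). As 52.3% of its exonic bases lie in the exons of SOD2 or TCP1, its values are uncertain. Further down the mevalonate pathway no other gene rose. PMVK, phosphomevalonate kinase, fell from a mean of 15.3 to 8.34 FPKM (log2 -0.80 ± 0.20, adjusted p = 0.00878), a call that ended without DMSO replicate 1 (adjusted p = 0.0587) or BLU667 replicate 1 (adjusted p = 0.0644). MVK, MVD, IDI1 and FDPS did not pass, with means of 2.17, 3.04, 10.6 and 15.9 FPKM at 24 h.

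MSMO1 (ENSG00000052802, chr4:165327623-165343160), the methylsterol oxidase that removes methyl groups after lanosterol, had 17.1 and 19.3 FPKM in DMSO, 45.5 and 32.1 at 24 h, 23.3 and 24.6 in BR8, 63.5 and 53.6 in BR10, and 17.0 and 17.7 in BR16. BR16 alone overlapped DMSO. The acute change was 1.03 ± 0.16 (adjusted p = 0.000601). The colony mean was 0.65 ± 0.13 above DMSO (adjusted p = 0.00357), but 0.15 without BR10 (adjusted p = 0.378).

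TM7SF2, a sterol reductase, had 1.66 and 0.854 FPKM in DMSO, 3.65 and 3.75 at 24 h, and between 1.80 and 2.95 in the 6 colony libraries, all above DMSO. Its acute change was 1.08 ± 0.19 (adjusted p = 0.00125). Squalene synthase FDFT1 (0.25), the epoxidase SQLE (0.47 ± 0.13) and SC5D, the lathosterol desaturase (0.65 ± 0.12), also rose at 24 h, by these log2 amounts. The FDFT1 call ended without BLU667 replicate 1 (0.19, adjusted p = 0.106). LSS, HSD17B7 and DHCR7 did not pass.

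EBP, a sterol isomerase, moved against this direction. It had 13.5 and 10.8 FPKM in DMSO, 5.68 and 4.49 at 24 h, 10.4 and 9.44 in BR8, 7.83 and 7.98 in BR10, and 8.61 and 8.75 in BR16. It fell by 1.11 on the log2 scale at 24 h (SE 0.12, adjusted p = 0.000114), with the colonies between the 24 h and DMSO levels. NSDHL, a decarboxylating dehydrogenase, fell from 13.8 to 10.5 FPKM (log2 -0.36, adjusted p = 0.0327), a call that ended in 9 of 19 alternatives. CYP51A1 was listed at 0.111 to 0.645 FPKM (7 to 41 reads), with 83.2% of its exonic bases inside other genes' exons, so its level here is uncertain.

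Of the fatty acid genes, 5 of 7 fell at 24 h and none rose. FASN (ENSG00000169710, chr17:82078333-82098332, minus strand), fatty acid synthase, had 56.9 and 44.6 FPKM in DMSO, 16.6 and 13.7 at 24 h, 30.5 and 23.3 in BR8, 29.1 and 36.8 in BR10, and 35.1 and 34.0 in BR16. The acute change was -1.67 ± 0.18 (adjusted p = 7.61e-05). The colonies lay between, 1.00 ± 0.14 above the 24 h level (adjusted p = 0.000447) and 0.68 below DMSO (log2 -0.68 ± 0.14, adjusted p = 0.00512), the second of which ended without DMSO replicate 1 (-0.50, adjusted p = 0.0535).

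SCD (ENSG00000099194, chr10:100347124-100364834), the stearoyl-CoA desaturase that makes oleate, had 161 and 148 FPKM in DMSO and 91.4 and 59.3 at 24 h. In the colonies it had 64.6 and 64.5 (BR8), 168 and 166 (BR10) and 38.9 and 41.8 (BR16). BR10 sat above DMSO, and the other colonies fell well below it. The 24 h change was -1.06 ± 0.17 (adjusted p = 0.000849).

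ACACA, the carboxylase that makes malonyl-CoA, fell from 11.0 to 6.29 FPKM at 24 h (log2 -0.72 ± 0.09, adjusted p = 0.000255). FADS1, a desaturase of polyunsaturated fatty acids, fell from 16.7 to 8.71 (-0.87 ± 0.07, adjusted p = 2.43e-05). ACLY, the citrate lyase that supplies cytosolic acetyl-CoA, fell from 76.9 to 57.0 (-0.42 ± 0.09, adjusted p = 0.00472) and was 92.0, 92.9 and 102 FPKM in BR8, BR10 and BR16. The ACLY fall lost its call under quantile normalization (-0.22, adjusted p = 0.076). ELOVL6, an elongase, and FADS2, a desaturase like FADS1, did not pass.

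Sterol handling held the widest fall of all 35 genes. NPC1 (ENSG00000141458, chr18:23506184-23586898, minus strand), the lysosomal exporter of cholesterol, had 61.6 and 58.0 FPKM in DMSO, 12.5 and 10.3 at 24 h, 14.9 and 15.8 in BR8, 22.2 and 22.9 in BR10, and 14.6 and 14.9 in BR16. No exposed library came near the controls. The changes were -2.30 ± 0.09 at 24 h (adjusted p = 4.55e-07) and -1.74 ± 0.08 for the colony mean (adjusted p = 1.07e-06). Its lysosomal partner NPC2 had means of 14.4, 18.7, 15.2, 14.3 and 26.6 FPKM in DMSO, at 24 h, in BR8, BR10 and BR16, so that BR16 was highest.

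ABCA1 (ENSG00000165029, chr9:104781002-104928237, minus strand), an exporter of cholesterol and an LXR target, had 13.0 and 12.6 FPKM in DMSO, 23.6 and 27.7 at 24 h, 11.9 and 12.2 in BR8, 9.99 and 8.59 in BR10, and 6.57 and 6.96 in BR16. It was above DMSO at 24 h and below it in all 3 colonies. The acute rise was 0.95 ± 0.10 (adjusted p = 7.54e-05), and the colony mean was 1.39 below the 24 h level (log2 -1.39 ± 0.08, adjusted p = 3.12e-06).

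MYLIP, an LXR target that marks lipoprotein receptors for degradation, had 9.35 and 8.94 FPKM in DMSO, 6.05 and 6.41 at 24 h, and 4.20 to 5.40 in the colonies. It fell in both contrasts (-0.49 at 24 h, adjusted p = 0.00369, and -0.76 ± 0.08 for the colony mean, adjusted p = 0.000171). NR1H2, the gene of LXR beta, had 14.3 and 11.9 FPKM in DMSO, 12.5 and 11.3 at 24 h, 8.25 and 5.31 in BR8, 5.37 and 7.11 in BR10, and 15.0 and 15.8 in BR16. BR8 and BR10 were below the other groups (acute -0.13 ± 0.19, adjusted p = 0.579). STARD4, a cytosolic sterol carrier, had 11.8 and 14.6 FPKM in DMSO, 8.88 and 7.94 at 24 h (-0.59 ± 0.11, adjusted p = 0.00196), 11.4 and 11.8 in BR8, 16.9 and 14.8 in BR10, and 6.34 and 6.45 in BR16. BR16 lay below every other group for STARD4. ABCG1 had 0 reads in all 10 libraries, where 3 reads would be 0.0216 to 0.0310 FPKM.

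Of the 35 genes, 26 (74.3%) differed among colonies by limma's moderated F test, against 58.1% of all tested genes. BR10 was the highest colony for 19 of the 26 (73.1%), against 28.4% of all genes that differed, BR16 for 6 (23.1%, against 40.3%) and BR8 for 1 (3.85%, against 31.3%). BR16 was the lowest for 16 (61.5%, against 39.7%), BR8 for 8 (30.8%, against 33.4%) and BR10 for 2 (7.69%, against 26.9%). With the GC trend removed, BR10 was highest for 22 of 27, against 39.3% of all genes then called.

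**Figure D3:**
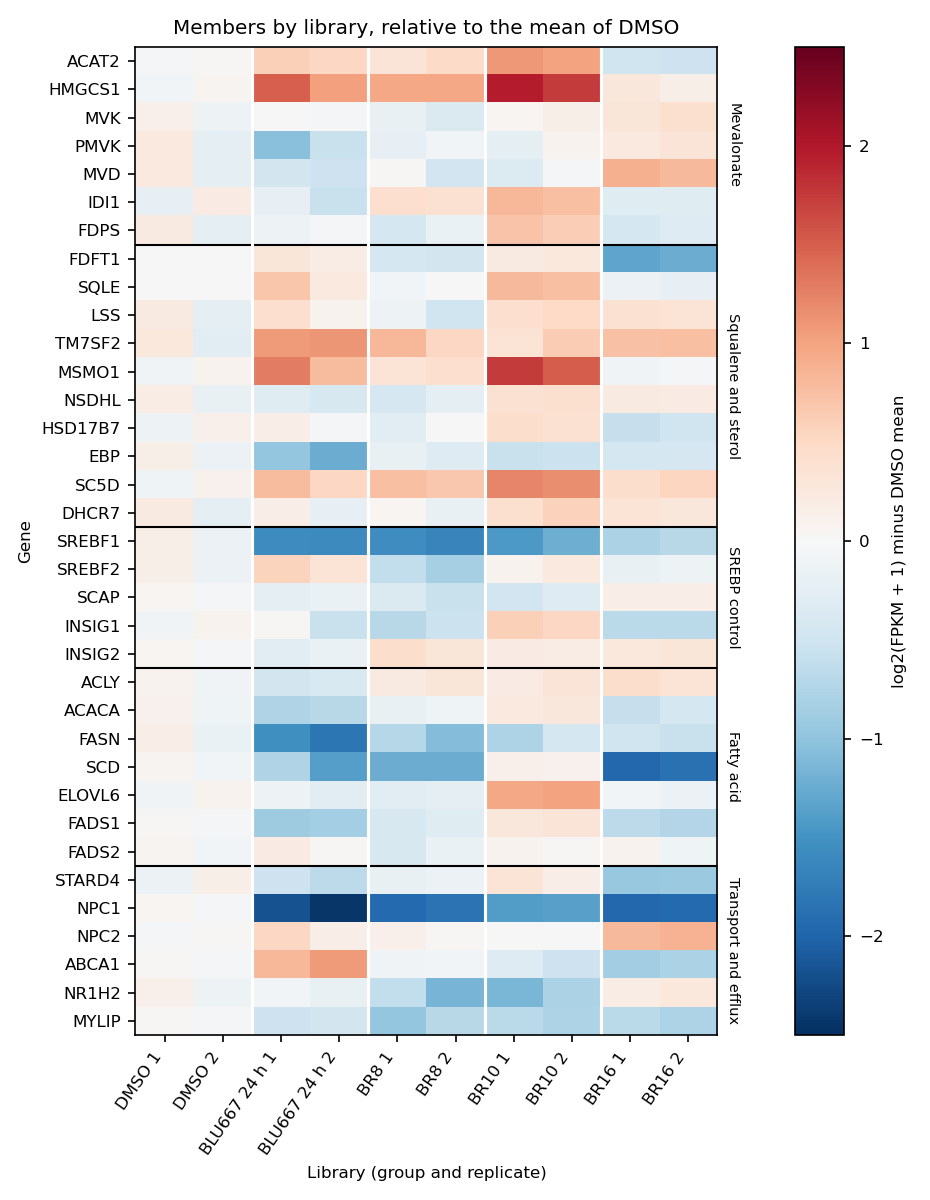
Log2(FPKM + 1) minus the DMSO mean (colour) for the 35 tested genes (rows, by role) in the 10 libraries (columns). BR10 is the reddest colony for HMGCS1, MSMO1, SC5D and ELOVL6. It is the lowest colony for TM7SF2 and EBP, which did not differ among colonies by F test in these values. With the GC trend removed both differed (F test, adjusted p = 0.000649 and 0.0263) and BR16 was lowest. SCD in BR16, and NPC1 at 24 h, in BR8 and in BR16, are the deepest blue.

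Taken pair by pair, 17 genes were higher and 5 lower in BR10 than in BR16 (48.6% and 14.3%, against 21.1% and 22.0% of all tested genes). With the GC trend removed, MVD, SREBF1 (0.14) and SCAP (0.12) were no longer called lower in BR10 than in BR16. LSS, TM7SF2, DHCR7, SREBF2, FASN and FADS2 then became called higher in BR10 and INSIG2 lower. In BR8, 1 was higher and 18 were lower than in BR10 (2.86% and 51.4%, against 11.3% and 11.5%). That correction removed none of these calls, while IDI1, MVK, SREBF1 and DHCR7 became called lower in BR8 and EBP higher. Between BR8 and BR16, 11 were higher and 9 lower in BR8 (31.4% and 25.7%, against 24.1% and 24.5%). With the GC trend removed, LSS, SREBF2, MVK, MVD, SREBF1 and SCAP were no longer called lower in BR8 than in BR16. LSS then stood at -0.17 (limma adjusted p = 0.344) and SREBF2 at -0.15 (adjusted p = 0.212). MSMO1 and HSD17B7 were no longer called higher in BR8, while FDPS, TM7SF2, EBP and FASN became called higher and ELOVL6 lower. Both libraries of BR10 lay above both of DMSO for 21 genes (60.0%, against 32.4% of all tested) and below for 8 (22.9%, against 35.0%), whereas BR8 lay above for 8 and below for 20 (22.9% and 57.1%, against 34.2% and 37.7%) and BR16 above for 14 and below for 17 (40.0% and 48.6%, against 34.9% and 36.8%).

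By role, BR10 was the highest colony for all 7 squalene and sterol genes that differed and for all 4 fatty acid genes. It was highest for 4 of 6 mevalonate genes, 2 of 4 SREBP control genes and 2 of 5 transport genes. Of all tested genes that differed, 28.4% were highest in BR10. With the GC trend removed, the sterol genes TM7SF2 and EBP differed too, with BR8 highest. SCD spanned the widest range, 2.02 ± 0.17 between BR10 and BR16 on the log2 scale (adjusted p = 0.000149). MSMO1 followed with 1.69 ± 0.16 (adjusted p = 0.000218), HMGCS1 with 1.64 ± 0.15 (adjusted p = 0.000228) and ACAT2 with 1.56 ± 0.08 (adjusted p = 1.77e-05). FDFT1 had 16.8 FPKM in each DMSO library, 21.0 and 19.3 at 24 h, 12.1 and 12.0 in BR8, 19.7 and 20.4 in BR10, and 6.10 and 6.53 in BR16, so that BR10 was above DMSO and BR16 lowest. Its difference between BR10 and BR16 was 1.52 ± 0.07 (adjusted p = 1.59e-05).

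**Figure D4:**
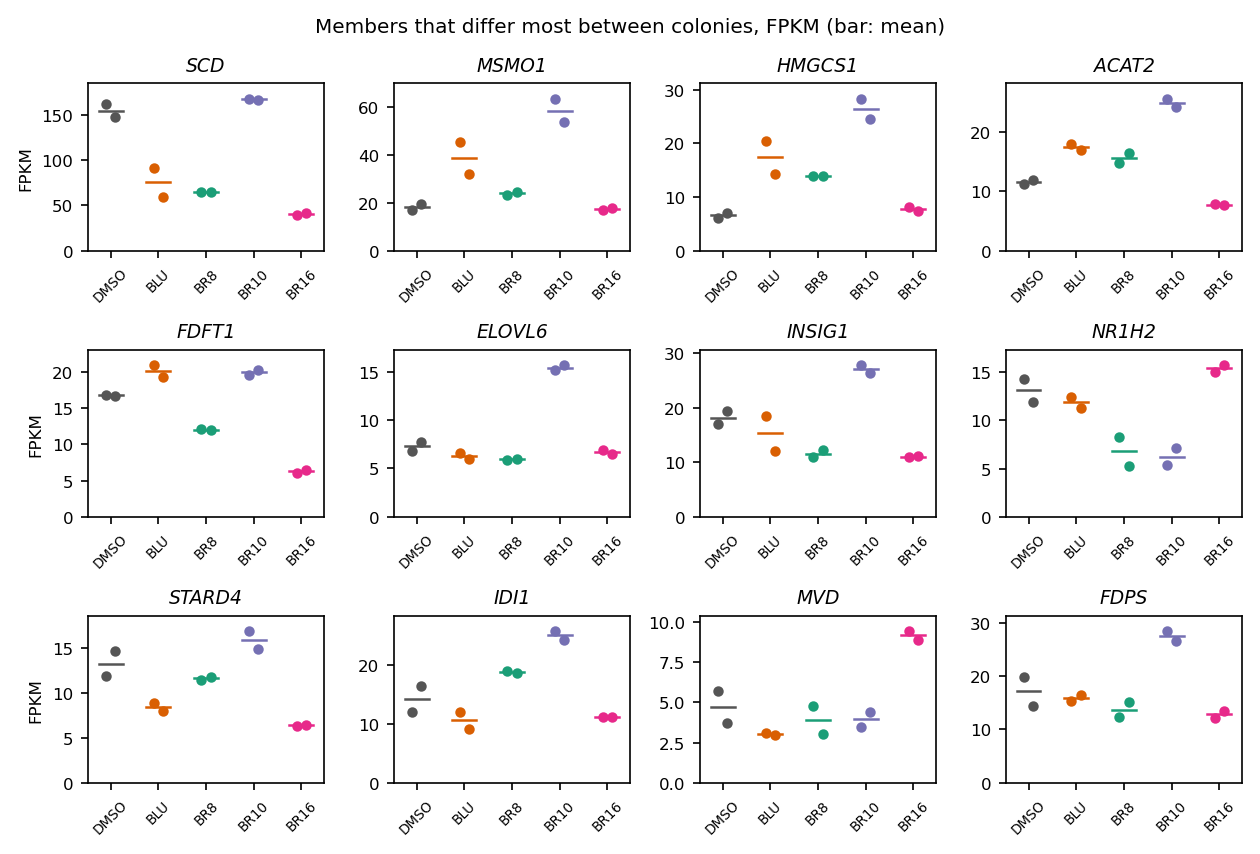
FPKM (vertical axis, from 0) of the 12 genes whose colonies differed by F test and by at least 1 on the log2 scale, in each of the 10 libraries, with BLU standing for BLU667 for 24 h. Each point is 1 library and each line a group mean; BR10 is the highest colony in 10 panels, and BR16 is the highest for MVD and NR1H2.

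ELOVL6 had 6.84 and 7.76 FPKM in DMSO, 6.56 and 5.94 at 24 h, 5.86 and 5.98 in BR8, 15.1 and 15.7 in BR10, and 6.94 and 6.49 in BR16. BR10 was the one group above both DMSO libraries, and it exceeded BR8 by 1.25 ± 0.09 on the log2 scale (BR8 minus BR10 -1.25, limma adjusted p = 5.73e-05). INSIG1 differed by 1.23 ± 0.17 between BR10 and BR16 (adjusted p = 0.00113) and STARD4 by 1.19 ± 0.11 (adjusted p = 0.000231). FADS1, at 12.9, 20.8 and 9.94 FPKM in BR8, BR10 and BR16, had a range of 0.99, just short of the 1 that the plot of colony genes asks for.

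IDI1, isopentenyl diphosphate isomerase, had 11.9 and 16.3 FPKM in DMSO, 12.0 and 9.14 at 24 h, 18.9 and 18.6 in BR8, 25.7 and 24.2 in BR10, and 11.2 and 11.1 in BR16. FDPS, farnesyl diphosphate synthase, had 19.9 and 14.4 in DMSO, 15.4 and 16.4 at 24 h, 12.3 and 15.1 in BR8, 28.5 and 26.6 in BR10, and 12.2 and 13.4 in BR16. Both were highest in BR10 (1.09 ± 0.15 and 1.05 ± 0.15 over BR16, adjusted p = 0.00124 and 0.00137). FDPS shares 18.6% of its exonic bases with other genes and, like HSD17B7, has pseudogene copies in the same table, so its counts are uncertain.

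Before any GC correction, BR16 was the highest colony for MVD, MVK, SCAP, NR1H2, NPC2 and SREBF1. MVD, mevalonate diphosphate decarboxylase, had 5.70 and 3.74 FPKM in DMSO, 3.12 and 2.96 at 24 h, 4.76 and 3.06 in BR8, 3.45 and 4.42 in BR10, and 9.46 and 8.89 in BR16. This range of 1.07 (F test, adjusted p = 0.00402) shrank to 0.28 with the GC trend removed (adjusted p = 0.103). Those of SREBF1 (0.86 to 0.21, adjusted p = 0.0506) and SCAP (0.62 to 0.12, adjusted p = 0.357) shrank too, and the order of colonies changed. BR10 was then 0.14 above BR16 for SREBF1, and BR16 was the lowest colony for SCAP. For MVK, mevalonate kinase, the range fell from 0.61 to 0.28, with BR10 then 0.17 above BR16. The MVK call ended when a replicate block was added to that correction (adjusted p = 0.0629). For NR1H2 the range fell from 1.19 to 0.61 and still passed (adjusted p = 0.00885). FASN, which did not differ among colonies in the uncorrected values (adjusted p = 0.201), had a range of 0.81 after the correction (adjusted p = 0.000314).

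Against DMSO, the mean of the 3 colonies was higher for 9 genes and lower for 12 (25.7% and 34.3%, against 22.9% and 26.3% of all tested genes, 49.2% either way), with a median of -0.00 (all tested genes -0.03). That mean hides the spread just described. With the 3 colony means as replicates, only SREBF1, NPC1 and MYLIP of the 21 still passed. Against 24 h of BLU667 it was higher for 14 and lower for 9 (40.0% and 25.7%, against 32.4% and 28.7% of all tested genes, 61.1% either way), and PMVK, EBP, INSIG2, FASN, ACLY and ABCA1 passed with colony means as replicates. These contrasts share the DMSO or the 24 h libraries with others given here, so their calls are not separate evidence.

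In the fatty acid role, 5 of 7 genes were higher in the colony mean than at 24 h (32.4% of all tested genes were) and none was lower. Of these, ELOVL6 rested on BR10 (0.40, and 0.012 without it, adjusted p = 0.897). In transport and efflux, 5 of 6 were below DMSO (26.3% of all tested genes were; STARD4, NPC1, ABCA1, NR1H2 and MYLIP) and NPC2 was above it. The STARD4 difference turned sign without BR16 (0.04), and those of NR1H2 and NPC2 lost their call without 1 colony (NR1H2 -0.37 without BR8, adjusted p = 0.0961, and NPC2 0.03 without BR16, adjusted p = 0.802).

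Other genes of these pathways, listed by function, moved in both directions. Over all tested genes, 29.0% rose and 31.2% fell at 24 h. Of 10 other sterol genes, 5 rose and 2 fell at 24 h. LBR, a nuclear envelope protein with sterol reductase activity like TM7SF2, fell from 120 to 31.3 FPKM (-1.89 ± 0.10, adjusted p = 1.69e-06) and stayed below DMSO in all colony libraries, whereas TM7SF2 rose. POR, the reductase that feeds electrons to cytochromes P450, rose by 1.22 ± 0.15, and TMEM97, a sterol-responsive membrane protein, fell by 0.68.

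Of 12 other genes of SREBP control and cholesterol handling, 4 rose and 4 fell at 24 h. SCARB1, the HDL receptor, fell from 4.44 to 1.91 FPKM (-0.90 ± 0.13, adjusted p = 0.000389) and its colony mean was -1.11 ± 0.10 from DMSO. ERLIN1, a protein of endoplasmic reticulum lipid rafts (-0.84 ± 0.08), and SOAT1, which esterifies cholesterol (-0.64 ± 0.13), fell. STARD3, a late endosomal sterol binder, was lower in the colony mean (-0.55, adjusted p = 0.00522), a call that ended with colony means as replicates (adjusted p = 0.136).

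Of 17 other fatty acid and glycerolipid genes, 4 rose and 5 fell at 24 h, near the 29.0% and 31.2% of all tested genes. ACSS2, which makes acetyl-CoA from acetate, had 7.01 and 5.53 FPKM in DMSO, 36.5 and 58.2 at 24 h, and 43.5 to 51.6 in the 6 colony libraries. It rose by 2.70 ± 0.19 at 24 h (adjusted p = 8.25e-06) and was 2.73 ± 0.16 above DMSO in the colony mean, with all 3 colonies alike. SCD5, a second stearoyl-CoA desaturase, rose from 9.92 to 47.6 FPKM (2.15 ± 0.08, adjusted p = 2.61e-07) as SCD fell. ELOVL7 rose (0.82 ± 0.08, and 1.40 ± 0.07 in the colony mean), and ACSL3, a long-chain acyl-CoA synthetase, fell by 1.14.

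Of 7 other LXR targets, 4 were tested, of which 2 rose and 1 fell at 24 h. PLTP, the phospholipid transfer protein, had 1.51 and 1.44 FPKM in DMSO, 4.85 and 5.41 at 24 h, and 0.0974 to 0.467 in the colonies. Like ABCA1, it was above DMSO at 24 h and below it in the colonies (1.31 ± 0.12 at 24 h, adjusted p = 3.55e-05, and -0.98 ± 0.10 in the colony mean). SMPDL3A rose by 1.01 ± 0.19 at 24 h.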

How the data were processed

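TRI reagent and Direct-zol extraction, GlobinClear depletion and a non-directional NEB library kit were used, per the labels' protocols. The submitters' processing notes name CASAVA, STAR 2.5, HTSeq 0.6.1, DESeq2 (version given as 2) and the build GRCh38 (hg38), and no annotation release is stated. The deposited table gives each gene's FPKM in the 10 libraries, as computed by the authors. Each value was multiplied by gene length and divided by a per-read unit fitted for its library. Of the nonzero results, 100% came out as whole reads to within 0.05.

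The filter was an FPKM of 1 or more in 2 or more libraries. The remaining 13927 genes entered a single limma 3.58.1 model of the 5 groups in R 4.3.3, with log2(FPKM + 1) as the response and a trended prior variance. Adding 1 understates changes of low genes. P-values are two-sided, with Benjamini-Hochberg adjustment over all genes tested and calls below 0.05. The colony mean averages 3 group means, so its SE reflects libraries and not colonies. Alternatives included the removal of each library's GC trend by loess (span 0.3). The fitting script was tested on simulated data. The members and lists were chosen with earlier results of these data known. Values by library were given for the regulators, for called genes with an absolute log2 change of at least 1 and for genes with a colony range of at least 1, and other pathway genes by the largest called changes per list (4 at 24 h, 2 for the colony mean). Some genes that met this rule are counted but not reported here by name. Figures used Python 3.11.15 and matplotlib 3.10.9.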

Additional observations from a re-analysis of the deposited data

Results flagged for a closer look

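For 16 genes, both libraries of at least 1 colony lay above both DMSO libraries and both libraries of another lay below them, and the colonies differed by limma's F test (adjusted p given in brackets). The value is the log2 difference between the highest and the lowest colony. The share of all tested genes that met this rule was not counted. For a single colony, 32.4% to 34.9% of all tested genes lay above both DMSO libraries and 35.0% to 37.7% below. Of all tested genes, 58.1% differed by F test. That test compares colonies and not a colony with DMSO. Some margins were narrow, as for BR8 below DMSO in STARD4 (11.76 against 11.83 FPKM), SQLE (24.82 against 24.97) and ACACA (10.08 against 10.15). BR10 was above DMSO with BR8 and BR16 below it for SCD (2.02; 0.000209), FDFT1 (1.52; 2.61e-05), INSIG1 (1.23; 0.00105), STARD4 (1.19; 0.000325), FADS1 (0.99; 0.000134), SQLE (0.95; 0.00126) and ACACA (0.77; 0.00103). BR10 was above with BR16 below for FDPS (1.05; 0.00135) and HSD17B7 (0.95; 0.00161), and above with BR8 below for ELOVL6 (1.25; 7.17e-05). BR8 and BR10 were above with BR16 below for ACAT2 (1.56; 3.09e-05) and IDI1 (1.09; 0.00185). BR16 was above with BR8 and BR10 below for NR1H2 (1.19; 0.00199) and SCAP (0.62; 0.00168), and above with BR8 below for MVK (0.61; 0.00634). With the GC trend removed the ranges of SCAP (0.12, BR16 then lowest) and MVK (0.28, BR10 then highest) and of NR1H2 (0.61) were smaller. BR10 and BR16 were above with BR8 below for NSDHL (0.72; 0.00356).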

How the results depend on the processing

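Counts of genes called stayed within 1.5 times those reported, apart from the settings named here. Requiring an absolute log2 change of at least 1 left 3 higher and 5 lower at 24 h, 1 higher and 3 lower for the colony mean against DMSO, 0 higher and 1 lower against 24 h, and 12 among colonies. With colony means as 3 replicates the counts were 0 higher and 3 lower against DMSO, and 5 higher and 1 lower against 24 h. With the GC trend removed, 14 were higher against DMSO, while calls either way over all tested genes went from 6848 to 7435. Shares of all tested genes called higher under that setting, or with a log2 change of at least 1, were not counted. Against 24 h, 5 were lower with no filter on low values or without BR8 in the mean. Each library left out in turn gave 7 to 10 higher and 11 to 14 lower at 24 h, 7 to 10 higher and 8 to 13 lower for colonies against DMSO, 11 to 14 higher and 3 to 8 lower against 24 h (3 without BLU667 replicate 1, 5 without either BR16 replicate), and 25 to 27 among colonies, of which 18 to 20 highest in BR10. A group left with 1 library is assumed to vary like the others. Among values that passed, the sign turned in the colony mean against DMSO for SCAP with the GC trend removed (0.015, with or without the replicate block), STARD4 without BR16 (0.041), POR without BR16 (-0.096), and ACAT2 (-0.058) and ELOVL6 (-0.18) without BR10, and against 24 h for ACAT2 (0.16) and TECR (-0.075) without BR16. Values that had not passed turned sign and passed for SCD in the colony mean against 24 h (-0.26 without BLU667 replicate 2 and -0.52 without BR10, against 0.04 reported) and for SLC25A1, the citrate carrier, with the GC trend removed (0.18 at 24 h and 0.19 for the colony mean against DMSO, with or without the replicate block). The cause was not tested. Of the reported calls, 16 of 22 at 24 h and 21 of 26 among colonies held in all 19 alternatives without a size threshold. For the colony mean, 8 of 21 against DMSO and 13 of 23 against 24 h held in all but colony means as replicates, under which 3 and 6 held.

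Libraries of the same replicate number shared little deviation between groups (correlation of deviations -0.16 to 0.11). These correlations cannot show whether cultures were paired. With a replicate block 10 were higher and 12 lower at 24 h, and 8 higher and 11 lower in colonies against DMSO. Against 24 h the block left 14 higher and 7 lower, and 27 differed among colonies. The planned quasi-likelihood count test was not run because the values are FPKM; voom on recovered reads was. CYP51A1 and ABCG1 were too low to test, and 2 libraries a group limit every estimate.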
